A study of Mus musculus with 6 samples.

Results

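The 10 genes described here encode parts of the circadian clock: *Arntl* (the gene for BMAL1), *Clock*, *Per1*, *Per2*, *Per3*, *Nr1d1*, *Nr1d2*, *Ciart*, *Dbp* and *Tef*. They were taken by symbol from the 32285 genes of the deposited tables, of which 24734 had at least 1 unique molecular identifier (UMI, a tag that marks 1 captured mRNA) in a retained cell. The genes were chosen on measured values of these same libraries, so their levels, their changes between groups and the calls made on them are a description, and adjusted p-values given for them are not independent evidence. The study sorted tdTomato+ cells, marked through the *Cdh5* (VE-cadherin) promoter, from mouse dorsal skin and profiled them by droplet 3′ single-cell RNA sequencing. It compared phases of the hair cycle, and cells with and without the receptor Alk1, and the question taken up here is whether clock genes differed between these groups and whether the difference was shared by all cell types.

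Each of 3 groups had 2 libraries, S1 and S2, so n = 2 throughout. Wild-type (WT) telogen skin, in the resting phase of the hair cycle, was taken at postnatal day (PD) 20, and WT anagen skin, in the growth phase, at PD32. Both WT groups carried tdTomato, Cdh5-CreERT2 and Krt14-H2BGFP on a C57BL/6;CD1 background. Alk1 knockout (KO) skin was taken in telogen at PD25 from C57BL/6 mice that carried Alk1 flox/flox, tdTomato and Cdh5-CreERT2. Tamoxifen, which switches on the Cre recombinase, was given to all mice at PD17 at 200 µg per g of body weight. KO and WT telogen mice therefore differed in genotype, age, strain and the Krt14-H2BGFP allele, and came from separate experiments, and these cannot be told apart. One label of the KO libraries gives the genotype as wild type, and their titles and descriptions, which name the Alk1 allele, were followed. The hour of the day at which skin was taken is not given in the sources used here, although clock genes follow the hour. *Acvrl1*, which encodes Alk1, stood at 156 and 133 counts-per-million (CPM) in the endothelial cells (ECs) of the telogen libraries, 137 and 158 at anagen and 118 and 96.5 in the KO. Its 3′ tags may lie outside the deleted part, so these values check nothing about the deletion.

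The libraries held 10615358 to 43317677 UMIs in 2283 to 6643 barcodes, and 1713 to 5106 cells per library passed the study's filter (200 to 5000 genes and under 10% mitochondrial UMIs), 20941 in all. The totals of retained cells that the study states for the WT groups, which differ between its methods and its results, are below those found here. No pair of libraries shared more than 0.32% of its barcodes. Cells were clustered and the clusters named from marker genes, and every name below stands for "-like" cells. In this way 9 populations had at least 10 cells in each of the 6 libraries: artery-like, capillary-like, vein-like and lymphatic-like ECs, perineurial-like cells (the sheath of nerve bundles), fibroblast-like cells, pericyte/vSMC-like cells (mural cells), macrophage-like cells and DC/monocyte-like cells. The paper describes the immune cells and fibroblasts among its sorted cells as contaminants that lack *Cdh5*. Immune cells were few in the KO, with 22 and 32 macrophage-like and 16 and 51 DC/monocyte-like cells, and anagen S2 held 17 macrophage-like cells. ECs that could not be assigned to 1 EC type made up 5.03% of ECs at telogen, 13.6% at anagen and 5.01% in the KO, and were left out. UMIs were summed per library and population, and a level is the gene's counts-per-million value (CPM) within that sum. Levels are not compared between genes, because 3′ counts carry no common scale per length.

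The clock is a feedback loop of transcription. BMAL1 and CLOCK bind DNA as a pair at E-boxes and switch on the *Per* and *Cry* genes, whose proteins return to the nucleus and inhibit the pair. The same pair switches on *Nr1d1* and *Nr1d2*, which encode the repressors REV-ERBα and REV-ERBβ, and these shut down *Arntl* through ROR response elements. It also drives *Dbp*, which with its relative *Tef* encodes a PAR bZIP factor that activates genes through D-boxes. *Ciart*, also called CHRONO, encodes another repressor of the pair. Over a day, *Arntl* therefore peaks roughly opposite to *Nr1d1* and *Dbp*. Clocks run in skin, where they have been tied to the hair cycle, in the vessel wall and in immune cells, and glucocorticoids can set them in peripheral tissues, in part through *Per1*.

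The promoters were searched for the letters of these elements. RefSeq promoter windows on GRCm38.p6, from 250 bases before to 50 bases after an annotated start, were at hand for 9 of the 10 genes, as 14 windows of 300 bases. Both strands were searched for the E-box CACGTG, the D-box as TTATGTAA or TTACGTAA, and the ROR response element as ANTAGGTCA or ANTGGGTCA. An E-box occurred in 7.15% of all 32851 windows, a D-box in 1.06% and a ROR response element in 1.45%. Of the 14 windows, 6 held a match, from 5 genes. The 4 printed here are shown because between them they hold each of the 3 elements, the E-box in both *Ciart* and *Tef*, with the matches in capitals.

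*Ciart* (E-boxes, chr3:95882179-95882478, minus strand): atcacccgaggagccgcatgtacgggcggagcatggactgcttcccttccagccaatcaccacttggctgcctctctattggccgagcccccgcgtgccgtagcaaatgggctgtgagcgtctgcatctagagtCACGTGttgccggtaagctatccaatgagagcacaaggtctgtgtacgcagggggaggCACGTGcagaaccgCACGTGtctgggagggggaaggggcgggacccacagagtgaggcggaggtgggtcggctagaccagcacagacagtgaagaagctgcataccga
*Per3* (D-boxes, chr4:151044616-151044915, minus strand): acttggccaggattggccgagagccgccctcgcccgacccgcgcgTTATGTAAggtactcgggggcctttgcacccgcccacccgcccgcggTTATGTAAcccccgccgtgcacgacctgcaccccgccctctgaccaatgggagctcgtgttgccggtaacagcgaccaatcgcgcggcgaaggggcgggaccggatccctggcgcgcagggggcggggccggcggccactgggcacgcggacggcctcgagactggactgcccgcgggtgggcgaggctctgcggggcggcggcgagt
*Arntl* (ROR response element, chr7:113207261-113207560, plus strand): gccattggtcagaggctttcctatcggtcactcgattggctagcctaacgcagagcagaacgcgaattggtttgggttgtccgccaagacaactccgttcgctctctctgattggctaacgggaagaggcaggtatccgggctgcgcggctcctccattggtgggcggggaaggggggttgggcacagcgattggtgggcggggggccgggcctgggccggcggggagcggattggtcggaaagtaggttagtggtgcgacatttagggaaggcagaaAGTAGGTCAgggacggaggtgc
*Tef* (E-box, chr15:81802423-81802722, plus strand): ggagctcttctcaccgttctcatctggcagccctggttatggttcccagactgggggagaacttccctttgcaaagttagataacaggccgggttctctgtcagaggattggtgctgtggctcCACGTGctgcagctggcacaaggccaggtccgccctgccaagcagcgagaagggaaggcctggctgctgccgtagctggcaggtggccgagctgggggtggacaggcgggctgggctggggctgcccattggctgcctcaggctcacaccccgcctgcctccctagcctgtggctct

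The *Ciart* window held 3 E-boxes, which began 116, 58 and 44 bases before the start, the *Per3* window 2 D-boxes, 205 and 158 bases before it, and the second *Arntl* window a ROR response element 28 bases after it. Both *Tef* windows held 1 E-box, 127 and 138 bases before their starts, and the first *Per1* window 1, 166 bases before its start. No match lay in the windows of *Dbp*, *Clock*, *Nr1d1* or *Nr1d2*. A match is a string of letters and not a measured binding site, and its absence says only that these letters are not in this window.

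All 10 genes were detected in every library, from 610 UMIs in all for *Per2* to 8054 for *Clock*, and each had its own order of populations. *Dbp*, *Per1*, *Per3* and *Tef* were highest in perineurial-like cells, with means over the 6 libraries of 35.7 ± 11.8, 79.2 ± 14.7, 30.1 ± 13.7 and 103 ± 79.9 CPM (SD). *Nr1d2* and *Ciart* were highest in lymphatic-like ECs (54.3 ± 13.5 and 14.9 ± 4.54 CPM), *Nr1d1* in artery-like ECs (64.8 ± 29.4 CPM), *Clock* in capillary-like ECs (88.8 ± 20.4 CPM) and *Arntl* in fibroblast-like cells (36.8 ± 8.43 CPM). *Per2* had its highest mean in capillary-like ECs too (15.1 ± 21.9 CPM), but this rests on the KO libraries at 34.2 and 51.0 CPM. Its telogen values there, 0.733 and 1.57 CPM, lay below those of perineurial-like (3.39 and 4.22), macrophage-like (3.10 and 5.14) and pericyte/vSMC-like cells (3.88 and 5.68). At anagen capillary-like ECs stood at 2.56 and 0.789 CPM. They overlapped there with perineurial-like (2.06 and 1.96), macrophage-like (1.34 and 7.98, 1 UMI each) and pericyte/vSMC-like cells (4.03 and 0). DC/monocyte-like cells were lowest for 8 of the 10 genes, and vein-like ECs for *Per1* and *Ciart* (29.8 ± 9.64 and 1.87 ± 1.43 CPM). *Tef* was higher in perineurial-like than in lymphatic-like cells, the next in order, in 6 of 6 libraries. Most neighbours in these orders did not differ beyond their spread: of the 8 neighbouring pairs of each gene, 0 to 2 kept their order in all 6 libraries. For *Arntl* the only pair that did was pericyte/vSMC-like over DC/monocyte-like cells (14.2 ± 4.37 and 5.03 ± 2.62 CPM). The plot of levels by library shows these values for all 9 populations.

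**Figure D1:**
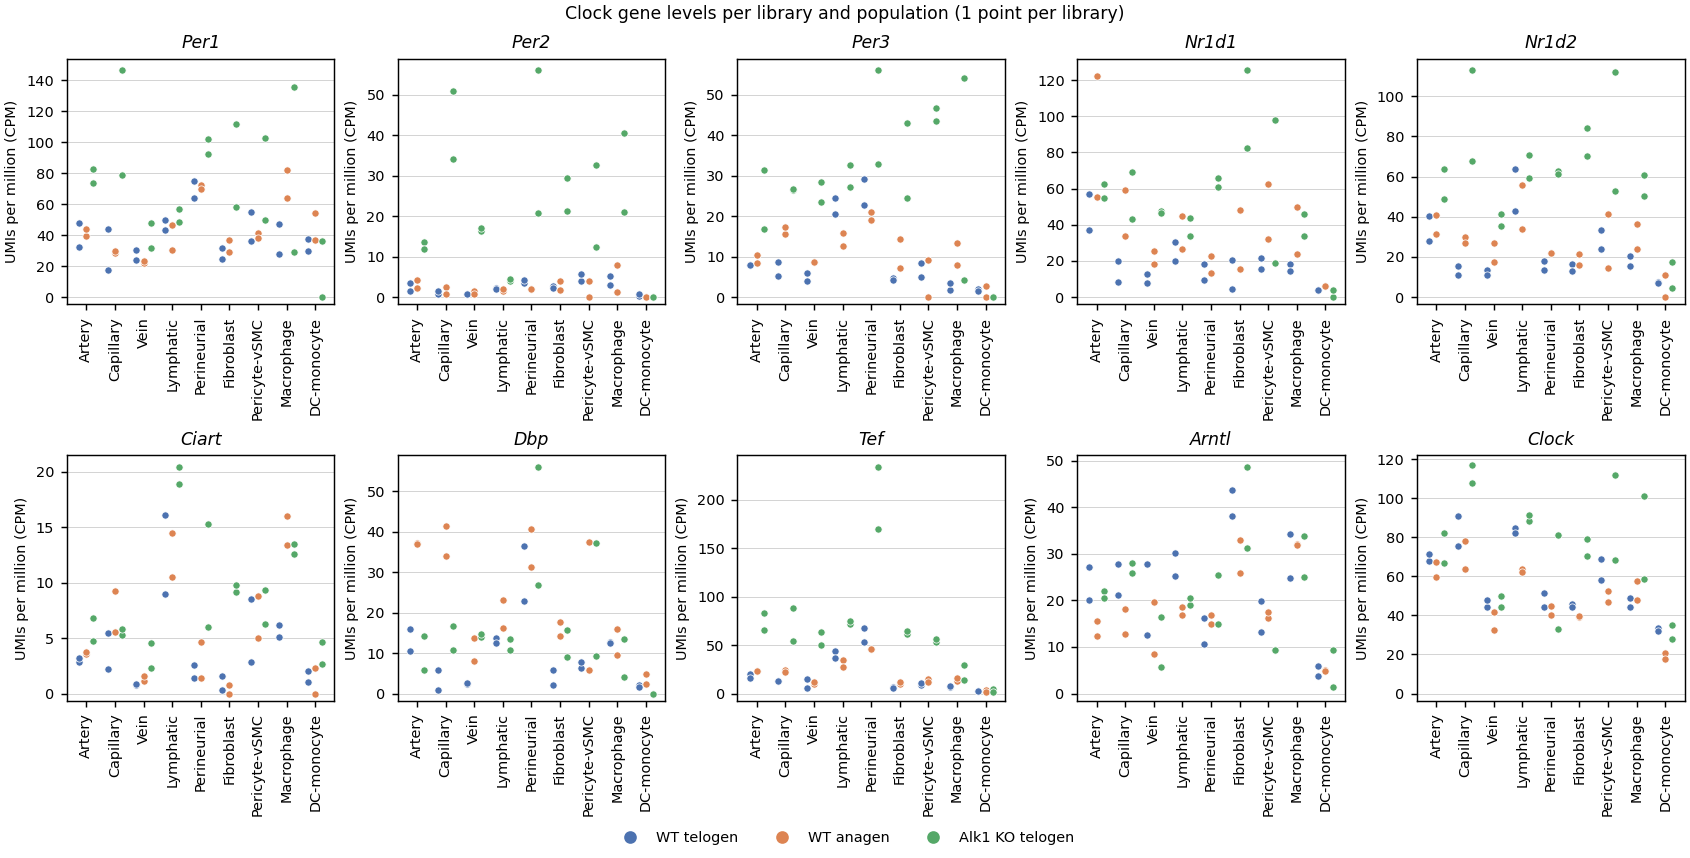
Level of each clock gene (y axis, UMI counts-per-million, linear scale) in the 9 populations (x axis), with 1 point per library and 2 libraries per group. WT telogen is blue, WT anagen orange and Alk1 KO green; KO points of *Per2* reach 51.0 CPM in capillary-like ECs, where the 4 WT libraries lie between 0.733 and 2.56 CPM.

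Between WT anagen and WT telogen, *Dbp* gave the largest difference, and it was uneven across the cell types. In capillary-like ECs *Dbp* stood at 5.86 CPM in telogen S1 and 0.784 in S2, against 41.4 and 33.9 CPM in the anagen libraries, a log2 fold change of 3.50 ± 0.45 (SE). Telogen and anagen did not overlap there, but the telogen values rest on 9 UMIs. In artery-like ECs *Dbp* rose from 15.8 and 10.4 to 37.2 and 36.8 CPM, a log2 fold change of 1.58 ± 0.24. These were 2 of the 3 calls among the clock genes, where a call means an adjusted p under 0.05 over all genes tested in that population and a fold over 1.3. In vein-like ECs the values were 2.38 and 2.60 at telogen and 7.97 and 13.6 CPM at anagen (log2 fold change 2.27 ± 0.54), and in fibroblast-like cells 5.90 and 1.99 against 14.3 and 17.8 CPM (2.13 ± 0.52). Both pairs of groups did not overlap, yet neither passed the test. Lymphatic-like ECs, at 13.6 and 12.5 against 16.1 and 23.1 CPM, gave a smaller value of 0.67 ± 0.25. Perineurial-like cells, with the highest telogen level, overlapped between stages (36.5 and 22.9 against 31.4 and 40.6 CPM, 0.38 ± 0.24), as did macrophage-like cells (12.6 and 12.4 against 9.40 and 16.0 CPM).

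*Nr1d1* was the other gene called at anagen, in macrophage-like cells, where it rose from 18.1 and 14.4 to 49.7 and 23.9 CPM (log2 fold change 1.65 ± 0.35). Anagen S2 held 17 such cells, and the gene was not called in 8 of 17 alternatives, among them those without telogen S1, telogen S2 or anagen S1. The REV-ERBα gene had a positive log2 fold change in all 9 populations where it could be tested, from 0.42 to 1.76. It was higher without overlap in 5 of them, beside 16.7% of all gene by population tests. In capillary-like ECs it stood at 19.8 and 8.63 CPM at telogen and at 59.5 and 33.9 CPM at anagen, the 1.76 ± 0.38 at the top of that range. *Nr1d2* in the same cells stood at 15.4 and 10.98 against 29.99 and 27.1 CPM (1.15 ± 0.26), and its other log2 fold changes ran from -0.09 to 1.11.

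The activators had 0 calls at anagen. *Arntl* was lower at anagen without overlap in 4 of the 9 populations tested, beside 30.8% of all gene by population tests, and none was called. In artery-like ECs it stood at 20.2 and 27.3 CPM at telogen and 15.7 and 12.3 at anagen (log2 fold change -0.65 ± 0.27). Capillary-like ECs had 27.9 and 21.2 against 12.8 and 18.1 CPM (-0.65 ± 0.28), lymphatic-like ECs 30.1 and 25.3 against 18.5 and 16.8 (-0.52 ± 0.22), and fibroblast-like cells 43.7 and 38.0 against 25.9 and 33.1 (-0.39 ± 0.23). In macrophage-like, perineurial-like, pericyte/vSMC-like, DC/monocyte-like and vein-like cells the 2 stages overlapped. *Clock*, the partner of *Arntl* and a gene with little daily rhythm in many tissues, had a median log2 fold change of -0.11 over 11 populations. Those 11 were the 9 populations with mast-like and proliferating cells added. *Clock* was lower at anagen without overlap in 6 of them and higher without overlap in 0, beside 30.8% and 16.7% of all tests. All 11 missed the threshold. The ratio of *Dbp* to *Arntl* gathers these values, as the log2 of 1 level over the other averaged over the 9 populations, and only its differences between libraries can be read. It was -0.91 and -1.60 in the telogen libraries, 0.03 and 0.17 at anagen, and -0.99 and -0.15 in the KO, so telogen and anagen did not overlap, KO S1 lay within the telogen range and KO S2 between telogen and anagen.

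The period genes and *Tef* gave values of both signs at anagen, and none of them was called. *Per3* was higher without overlap in 5 of the 7 populations tested and lower in 2, beside 16.7% and 30.8% of all tests. In capillary-like ECs it stood at 5.13 and 8.63 against 15.5 and 17.4 CPM (log2 fold change 1.29 ± 0.34). It was lower without overlap in lymphatic-like ECs (20.4 and 24.6 against 15.9 and 12.6 CPM, -0.50 ± 0.24) and perineurial-like cells (29.2 and 22.7 against 21.1 and 19.0 CPM, -0.30 ± 0.21). *Tef* stood at 13.2 and 12.5 against 24.6 and 22.3 CPM in capillary-like ECs (0.91 ± 0.26) and at 68.1 and 53.7 against 45.8 and 45.6 in perineurial-like cells (-0.33 ± 0.17), and its change was not shown to differ between populations. *Per1* overlapped between stages in 9 of 11 populations and was higher without overlap in macrophage-like cells (27.6 and 46.9 against 81.9 and 63.8 CPM) and lower without overlap in vein-like ECs (23.8 and 30.3 against 21.7 and 23.4 CPM). *Per2* was scarce in WT skin and passed the filter on low counts in 3 of 11 populations. It stood at 4.18 CPM or less in the 4 WT libraries of artery-like, capillary-like, vein-like and lymphatic-like ECs. *Ciart* passed in 4 and gave values from 0.14 to 1.44.

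Of 110 combinations of clock gene and population, 80 passed the filter on low counts. Of these, 3 were called higher and 0 lower, beside 0.526% and 0.167% of the 97069 gene by population tests over all genes. The libraries did not overlap in the higher direction in 29 of 80 and in the lower in 16, beside 16.7% and 30.8% of all tests. The median log2 fold change over the 80 was 0.35, against -0.0033 over all tests. A gene can pass that filter through the group in which it is high, so these counts cover the combinations that passed and not all members. Removing 1 library changed this count: 15 members by population were called without anagen S2 and 7 without anagen S1, most of them *Dbp* or *Nr1d1*. *Dbp* in artery-like and capillary-like ECs was called in each of the 4 fits that left out 1 library. In capillary-like ECs it was not called with at least 500 genes per cell or with no filter on low counts, and in artery-like ECs not under 5% mitochondrial UMIs, while DESeq2 gave no adjusted p there.

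The KO comparison shared its telogen libraries with the anagen comparison, in which *Per2* could be tested in 3 of 11 populations. In the KO, *Per2*, which encodes one of the inhibitors of BMAL1 and CLOCK, was called higher in 6 populations. In capillary-like ECs it stood at 0.733 and 1.57 CPM at telogen, 3 UMIs in all, and at 34.2 and 51.0 CPM in the KO, a ratio of the pooled counts of 37.1 with a 95% counting interval of 12.4 to 183. In vein-like ECs it stood at 0.792 and 0.867 CPM, 2 UMIs in all, against 16.4 and 17.0 CPM (ratio 20.1, interval 5.18 to 173). Fibroblast-like cells had 2.75 and 2.32 against 21.3 and 29.4 CPM (an 8.002-fold fitted difference, log2 SE 0.48), and perineurial-like cells 3.39 and 4.22 against 20.9 and 56.0 CPM (3.07 ± 0.57). Artery-like ECs went from 3.60 and 1.60 to 13.5 and 11.8 CPM (2.22 ± 0.53), and macrophage-like cells from 3.10 and 5.14 to 40.6 and 20.9 CPM (2.72 ± 0.66). In lymphatic-like ECs, the population with most cells, *Per2* gave 2.15 and 1.95 against 4.09 and 4.43 CPM, and the log2 fold change of 0.98 ± 0.46 was not called. KO values of *Per2* lay above telogen without overlap in the 8 populations that passed the filter on low counts, beside 32.0% of all tests. A gene can pass that filter through its high KO values alone. In the 2 that did not pass, *Per2* stood at 0.293 and 0.801 against 0 and 0 CPM in DC/monocyte-like cells, where a count of 0 allows up to 3.14 CPM over both KO libraries, and at 3.90 and 8.34 against 0 and 3.95 CPM in T/NK-like cells.

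*Tef*, the PAR bZIP gene, was called in 7 populations, the most of any of the 10. It stood at 7.08 and 5.29 CPM in telogen fibroblast-like cells and at 61.0 and 64.6 CPM in the KO (log2 fold change 3.02 ± 0.35). In perineurial-like cells, where it was already highest, it went from 68.1 and 53.7 to 170 and 234 CPM (1.61 ± 0.22). The capillary-like values were 13.2 and 12.5 against 54.7 and 88.6 CPM (2.33 ± 0.30), and the lymphatic-like values 44.1 and 36.3 against 72.2 and 74.6 CPM (0.81 ± 0.15). *Tef* was the 1 clock gene called in lymphatic-like ECs.

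Its relative *Dbp* behaved otherwise. It was called in capillary-like ECs (5.86 and 0.784 against 10.6 and 16.7 CPM, log2 fold change 1.84 ± 0.59) and in vein-like ECs (2.38 and 2.60 against 14.1 and 14.8 CPM, 2.47 ± 0.56). In artery-like ECs the KO libraries, at 5.92 and 14.2 CPM, overlapped with telogen at 15.8 and 10.4 (-0.38 ± 0.47), and lymphatic-like ECs overlapped too (13.6 and 12.5 against 10.6 and 13.5 CPM, -0.17 ± 0.26).

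Both REV-ERB genes were called in capillary-like and vein-like ECs, fibroblast-like and perineurial-like cells, and *Nr1d2* also in macrophage-like cells. *Nr1d1* in fibroblast-like cells stood at 20.5 and 4.30 CPM at telogen and at 82.3 and 125 in the KO (log2 fold change 2.80 ± 0.57). In perineurial-like cells it stood at 18.5 and 9.25 against 65.7 and 61.1 CPM (2.15 ± 0.45). *Nr1d2* gave its largest value in capillary-like ECs, from 15.4 and 10.98 to 67.6 and 113 CPM (2.62 ± 0.29), and its smallest in lymphatic-like ECs, from 43.0 and 63.6 to 59.1 and 70.6 CPM (0.23 ± 0.19), where the groups overlapped. In artery-like ECs *Nr1d1* overlapped between groups (56.9 and 36.9 against 62.6 and 55.1 CPM, 0.32 ± 0.24).

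*Per3* was called in 5 populations, and its KO values lay above telogen in the 7 that passed the filter, beside 32.0% of all tests. Of the 3 that did not pass, macrophage-like cells stood at 1.77 and 3.49 against 54.1 and 4.19 CPM, the last value being 1 UMI. T/NK-like cells overlapped (7.81 and 0 against 44.2 and 0 CPM). DC/monocyte-like cells stood at 1.90 and 1.51 against 0 and 0 CPM, under the 3.14 CPM that a count of 0 allows. *Per3* went from 8.53 and 4.97 to 43.6 and 46.6 CPM in pericyte/vSMC-like cells (log2 fold change 2.61 ± 0.48) and from 20.4 and 24.6 to 32.7 and 27.3 CPM in lymphatic-like ECs (0.35 ± 0.20, not called). *Per1* was called in artery-like ECs (32.4 and 48.1 against 73.6 and 82.6 CPM, 0.97 ± 0.22), capillary-like ECs (17.6 and 43.9 against 78.9 and 146 CPM, 1.74 ± 0.33) and fibroblast-like cells (31.9 and 24.8 against 57.9 and 112 CPM, 2.46-fold, log2 SE 0.32). *Ciart* passed the filter in 4 populations, with log2 fold changes from 0.57 to 2.17, none called.

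*Arntl* and *Clock* had 0 calls each in the KO, as did *Ciart*. *Arntl* log2 fold changes ran from -0.92 to 0.57 with a median of -0.28, and in capillary-like ECs, where *Per2* differed most, *Arntl* stood at 27.9 and 21.2 CPM at telogen and 28.1 and 25.9 in the KO (0.01 ± 0.31). *Clock* in the same cells stood at 75.5 and 91.0 against 108 and 117 CPM (0.31 ± 0.19), and its median over 10 populations was 0.09. Its KO values lay above telogen without overlap in 4 of those populations and below in 1, beside 32.0% and 29.9% of all tests.

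Of 100 combinations of clock gene and population, 84 passed the filter in this comparison. Of these, 32 were called higher and 0 lower, beside 8.50% and 10.0% of the 89526 tests over all genes. Libraries did not overlap in the higher direction in 53 of 84 and in the lower in 3, beside 32.0% and 29.9% of all tests. The median log2 fold change was 0.95 over the 84 and -0.02 over all tests. By population, 7 of 9 clock genes tested were called in capillary-like ECs, where 34.0% of all genes were called in either direction, 6 of 9 in fibroblast-like cells (37.1%) and 6 of 9 in vein-like ECs (21.3%). Artery-like ECs had 4 of 9 (17.6%) and perineurial-like cells 4 of 10 (19.7%). Lymphatic-like ECs had 1 of 10, where 24.7% of all genes were called, 1278 higher and 1437 lower of 10972. DC/monocyte-like cells had 0 of 7 and T/NK-like cells, with 12 and 37 KO cells, 0 of 4 by edgeR, where 2.28% and 0.0334% of all genes were called. Of the 32 calls, 22 stood without telogen S1, 22 without telogen S2, 28 without KO S1 and 24 without KO S2. Under every alternative in which they were tested, 14 stood. Of these, 5 were those of *Tef* in artery-like, capillary-like and lymphatic-like ECs and fibroblast-like and perineurial-like cells. *Nr1d2* in macrophage-like cells was not called in 8 of 17. The heatmap of fold changes shows the 3 calls at anagen and the 32 in the KO side by side.

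**Figure D2:**
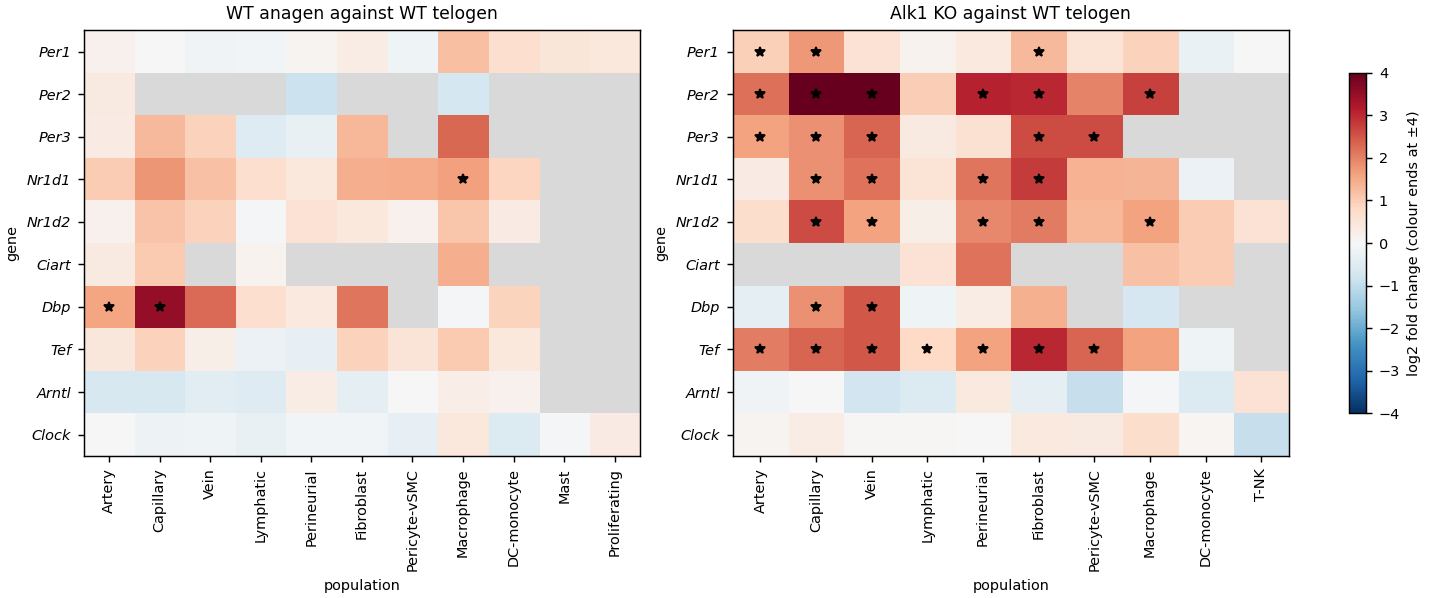
Log2 fold change of each clock gene (rows) in each population (columns), for WT anagen against WT telogen (left) and Alk1 KO against WT telogen (right), which share the telogen libraries. Red is higher and blue lower than telogen, grey was not tested, and a star marks a call; the *Per2* values in KO capillary-like and vein-like ECs rest on 3 and 2 telogen UMIs.

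Whether a change was shared by the cell types was tested as 1 term per gene, over all populations, with each library as a block so that a shift common to all cells of a mouse drops out. The members were chosen with results of these libraries known, so their adjusted p-values (edgeR, adjusted over all genes) are not independent evidence. At anagen the change differed between populations for 2 of the 10, *Dbp* (adjusted p = 0.00667) and *Per3* (adjusted p = 0.0456), beside 7.64% of the 12925 genes tested. For the other 8 it was not shown to differ. In the KO it differed for 7 of the 10: *Nr1d2* (adjusted p = 0.000284), *Tef* (0.000286), *Per2* (0.00101), *Nr1d1* (0.00117), *Dbp* (0.00498), *Per3* (0.0124) and *Per1* (0.0184), beside 31.3% of 13229 genes. *Clock* (0.359), *Ciart* (0.372) and *Arntl* (0.696) were not shown to differ. Over the 14 alternatives run, the adjusted p of *Tef* in the KO stayed between 6.93e-06 and 0.0423. For *Dbp* at anagen it ranged from 4.45e-11 to 0.372 and lay above 0.05 without telogen S1 (0.156), telogen S2 (0.372) or anagen S1 (0.0551). For *Per3* at anagen it ranged from 0.00156 to 0.584 and stayed under 0.05 in 6 of the 14, in none of the 4 that left out a library. Without telogen S2, the KO values of *Per2* (0.177), *Dbp* (0.15), *Nr1d2* (0.109) and *Nr1d1* (0.0898) lay above 0.05, and without KO S2 those of *Dbp* (0.0666) and *Per3* (0.051). Thinning to equal depth did the same for *Dbp* (0.0818) and *Per2* (0.0515), the 5% limit on mitochondrial UMIs for *Per2* (0.0821) and *Per3* (0.117), and clustering without correction between libraries for *Per1* (0.0817).

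The share of a gene's variance, on the scale log2(CPM + 2), that goes with the library over the 9 populations was also taken. It rises with a shift common to all cell types of a mouse, and also with a large change in only some of them. That share was 53.4% for *Per2*, 36.4% for *Nr1d2*, 29.1% for *Tef*, 27.1% for *Nr1d1*, 22.9% for *Per3*, 18.6% for *Ciart*, 17.0% for *Dbp*, 15.9% for *Clock*, 11.6% for *Per1* and 5.05% for *Arntl*. The median of the 10 was 20.7%, against 10.8% over 6320 genes of at least 20 CPM on average (quartiles 4.02% and 24.4%), a level that some of the clock genes do not reach, and 9 of the 10 were above that median. The cell type took more of the variance than the library for every clock gene but *Per2*, up to 75.7% for *Arntl*. Nearly all of the library share of *Per2* and *Tef* lay between the 3 groups (52.9% and 29.0%). Among the 4 WT libraries alone the median library share was 6.74% for the clock genes and 4.07% for all genes, with *Nr1d1* (31.4%) and *Dbp* (24.2%) highest and *Tef* lowest (1.62%). The bars of variance shares show this drop for *Per2*, from 53.4% to 2.64%, once the KO libraries are left out.

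**Figure D3:**
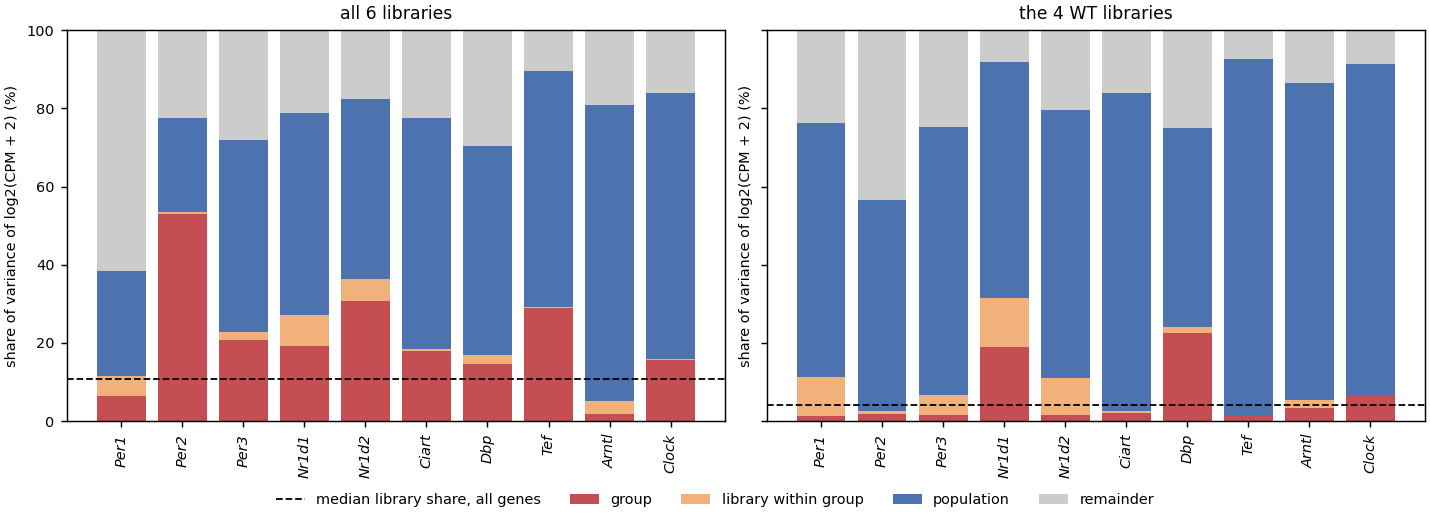
Share of the variance of log2(CPM + 2) of each clock gene (bars, percent) that lies between groups (red), between libraries of a group (orange), between the 9 populations (blue) and in the remainder (grey), for all 6 libraries (left) and the 4 WT libraries (right). The dashed line is the median library share of all genes, 10.8% and 4.07%; most clock genes stand above it on the left, *Nr1d1* and *Dbp* by most on the right.

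Libraries of 1 group also differed from each other in the same direction across cell types. *Nr1d1* was higher in telogen S1 than in telogen S2 in 9 of 9 populations, by 0.70 on average on the log2 scale, and in anagen S1 than in anagen S2 in 8 of 9, by 0.79. *Nr1d2* was higher in S1 in 8 of 9 populations at both stages. *Per3* was higher in anagen S1 in 8 of 9, and *Per1* in telogen S2 in 8 of 9. As a background, 15.2% of 6320 genes had 1 sign in at least 8 of the 9 populations between the telogen libraries, 20.6% between the anagen and 9.45% between the KO libraries, where 3, 3 and 0 of the 10 clock genes did. The mean deviation of *Nr1d1* from its population means was -0.39 and -1.09 in the telogen libraries, 0.57 and -0.22 at anagen and 0.25 and 0.87 in the KO. Here anagen S2 lay nearer to telogen S1 than to anagen S1. For *Per2* the deviations were -0.66 and -0.56 at telogen, -0.73 and -0.80 at anagen and 1.23 and 1.52 in the KO, and for *Tef* the KO libraries stood at 0.99 and 1.15 with the 4 WT libraries between -0.68 and -0.36. The plot of library means shows the KO apart from WT for *Per2*, *Per3*, *Nr1d2*, *Ciart* and *Tef*, and not for *Dbp*, *Nr1d1* or *Arntl*.

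**Figure D4:**
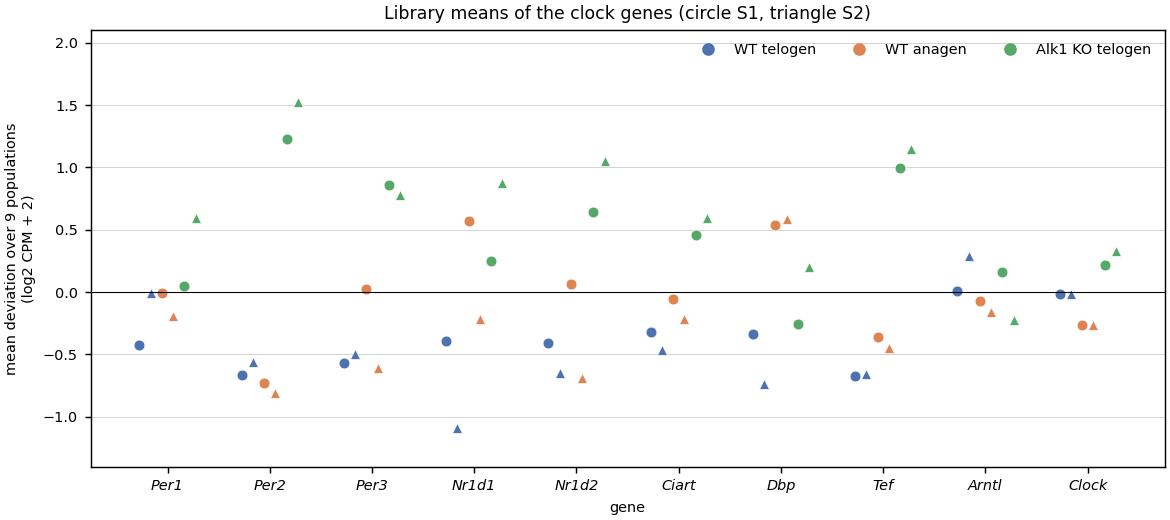
Mean deviation of each library from the population means (y axis, log2(CPM + 2), averaged over 9 populations) for each clock gene (x axis), with circles for S1 and triangles for S2. Both KO points lie above all 4 WT points for *Per2*, *Per3*, *Nr1d2*, *Ciart*, *Tef*, *Per1* and *Clock*, while for *Dbp* both anagen points lie above the other 4.

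The rest of the clock was followed in 23 further genes: other core genes such as *Cry1* and *Cry2*, the kinases and ligases that turn clock proteins over, and clock output genes. At anagen 21 of them could be tested, in 172 combinations with a population, of which 1 was called higher and 1 lower, beside 0.526% and 0.167% of all tests. *Bhlhe40*, a repressor of E-box genes, was called in macrophage-like cells (5.75 and 9.66 against 44.3 and 7.98 CPM, adjusted p = 0.0485), where the groups overlapped, and *Tsc22d3* fell in perineurial-like cells (321 and 546 against 166 and 155 CPM, adjusted p = 0.0338). In the KO 22 genes were tested in 166 combinations, of which 33 were called higher and 4 lower, beside 8.50% and 10.0% of all tests. *Hlf*, the third PAR bZIP gene, rose in fibroblast-like cells (7.08 and 8.27 to 54.9 and 47.0 CPM, log2 fold change 2.37 ± 0.36, adjusted p = 0.00142) and in vein-like ECs (2.38 and 0.867 to 21.9 and 17.0 CPM, 3.48 ± 0.60, adjusted p = 0.000833), and in 4 populations in all. *Cry2*, which encodes a partner of the PER proteins, rose in capillary-like ECs (7.33 and 7.06 to 24.3 and 33.4 CPM, adjusted p = 0.00161) and in vein-like ECs (7.92 and 11.3 to 27.3 and 18.2 CPM, adjusted p = 0.0391). *Nfil3*, which encodes a repressor at D-boxes, rose in 4 populations and fell in lymphatic-like ECs (117 and 123 to 77.1 and 90.5 CPM, adjusted p = 0.0102). *Rora*, whose product opposes the REV-ERBs, also rose in capillary-like ECs and fibroblast-like cells and fell in lymphatic-like ECs (123 and 160 to 95.1 and 105 CPM, adjusted p = 0.0207). Of these 23 genes, *Nampt*, *Nfil3*, *Tsc22d3*, *Cry2*, *Por*, *Rora*, *Csnk1e* and *Gsk3b* differed between populations in their KO change, 8 of the 22 tested beside 31.3% of all genes. Over the 14 alternatives, *Rora* stayed under 0.05 in 10, *Gsk3b* in 4 and *Csnk1e* in 1.

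*Tsc22d3*, listed here with the clock outputs and known as a target of the glucocorticoid receptor, was called higher in 8 populations in the KO, the most of the 33 clock genes listed here. In fibroblast-like cells it stood at 46.4 and 50.3 CPM at telogen and at 771 and 915 in the KO (log2 fold change 3.80 ± 0.23, adjusted p = 4.11e-05), and in lymphatic-like ECs at 50.6 and 90.9 against 658 and 617 CPM (3.12 ± 0.23, adjusted p = 3.63e-05). A list of 9 other genes that respond to glucocorticoids held *Fkbp5*, *Zbtb16*, *Sgk1*, *Klf9*, *Ddit4*, *Cdkn1a*, *Mt1*, *Mt2* and *Errfi1*. Of 89 combinations tested in the KO, 48 were called higher and 0 lower, beside 8.50% and 10.0% of all tests. The median log2 fold change of these genes was 1.23. Their summed level per population ran from 1606 to 5299 CPM at telogen, 1593 to 7820 at anagen and 3638 to 16738 in the KO, and none was at 0 in a whole group. At anagen 3 of 89 were called higher and 0 lower, with a median log2 fold change of -0.03. Their part in the differences of the clock genes was not tested.

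Other gene lists are read against the same shares of all tests, 8.50% higher and 10.0% lower in the KO and 0.526% and 0.167% at anagen. Of 14 immediate early genes, which respond to tissue dissociation, 30 of 140 combinations were called higher and 7 lower in the KO and 6 of 153 higher at anagen, with summed levels of 5340 to 24357 CPM at telogen, 6079 to 25034 at anagen and 8396 to 34034 in the KO. Of 8 heat shock genes, 2 of 78 combinations were higher and 14 lower in the KO, and 1 of 86 was higher at anagen. Transcripts of immune cells found in non-immune populations, a measure of free RNA, were lower in 17 of 45 combinations at anagen and 29 of 36 in the KO, with sums of 59.5 to 413 CPM at telogen, 6.57 to 441 at anagen and 0 to 22.6 in the KO. Haemoglobin genes in those populations were lower in 9 of 19 combinations at anagen, and 1 was higher and 4 lower of 22 in the KO. The part of these in the clock gene values was not tested.

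The genes most like *Dbp* and *Arntl* were sought over the 54 sums of 9 populations and 6 libraries, after the mean of each population was taken out. These sums share 6 libraries, so the correlations are a description. Of 6314 other genes, *Ppm1g* (Pearson r = 0.60), *Polr2l* (0.59), *Pir* (0.56), *Os9* (0.51) and *Klf13* (0.49) followed *Dbp* most closely, and *Plek* (-0.67), *Ptprj* (-0.58), *Ctss* (-0.57), *Sec61a1* (-0.57) and *Ptprc* (-0.56) ran most opposite to it. Among the clock genes *Nr1d1* was nearest to *Dbp* (0.59), followed by *Per3* (0.38), and *Arntl* ran opposite (-0.34). For *Arntl* the highest values were those of *Stx16* (0.54), *Camk2d* (0.48), *Ndst1* (0.48), *Tars* (0.48) and *Add1* (0.48), and the lowest those of *1500011B03Rik* (-0.47), *Arhgap10* (-0.46), *Snai1* (-0.45), *Raly* (-0.43) and *Rit1* (-0.42).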

How the data were processed

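The authors aligned reads of Chromium 3′ v3 libraries to mm10 with Cell Ranger 6.0.1, per the labels and methods, and deposited filtered tables of UMI counts per gene and cell, which they analysed in Seurat 4.0. These counts were used as deposited, and no column of another sample was present. Cells with 200 to 5000 genes and under 10% mitochondrial UMIs were kept. The 3000 most variable genes, without the lists reported here, gave 30 principal components, which were aligned between libraries by a numpy implementation of Harmony, joined over 20 neighbours and clustered by the Leiden method (resolution 0.6; scanpy 1.11.5, leidenalg 0.10.2). A cluster was named where at least 3 markers of a type reached 2 times the median of the other clusters in at least 25% of its cells, and ties stayed unnamed. Likely doublets were kept, and were removed only in an alternative. Scrublet's automatic threshold, used in 3 libraries, marked 60, 48 and 9 cells, and the highest 5% of scores were taken in the others, 159, 215 and 98 cells, where it marked under 0.5%.

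Counts were summed per library and population with at least 10 cells in every library compared, and tested by edgeR 4.0.16 (quasi-likelihood, TMM scaling, filterByExpr, Benjamini-Hochberg adjustment, R 4.3.3) with 2 libraries a group. Calls were made at a false discovery rate of 0.05 with at least a 1.3-fold difference. Whether changes differed between populations was tested in 1 fit with the library as a block. The tests were tried on simulated data. P-values of the comparisons within 1 population measure the spread between the 2 libraries of a group, which the methods describe as biological replicates. In the test between populations the library block takes out the shift common to a library. Its p-values rest on the spread left across populations, which still come from 2 libraries a group. Counting intervals (95%) cover counting error only. The members and gene lists were chosen with earlier results of these data known, and 1 clock gene of the lists is not reported here. The genes named are the 10 members, clock genes of the lists that were called, and the 5 genes with the highest and the 5 with the lowest correlation to *Dbp* and *Arntl*. Alternatives changed the cell filters, doublets, library correction, clustering, count filter, scaling, test (DESeq2 1.42.0), depth, the samples in a fit and a replicate block. Median TMM log2 fold changes over all genes lay between -0.17 and 0.03 in each population, and plain CPM gave another sign for 6 of 80 member values at anagen and 4 of 84 in the KO, none of them called.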

Additional observations from a re-analysis of the deposited data

Results flagged for a closer look

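Changes that differed between populations, by the test of the difference itself in edgeR with adjustment over all genes, are given here for the clock genes that passed. The 10 members were chosen with results of these libraries known, so their values are not independent evidence. At anagen they were *Dbp* (adjusted p = 0.00667) and *Per3* (0.0456), beside 7.64% of all genes. *Dbp* lay above 0.05 without telogen S1 (0.156), telogen S2 (0.372) or anagen S1 (0.0551), and *Per3* stayed under 0.05 in 6 of 14 alternatives. *Dbp* log2 fold changes ran from -0.09 in macrophage-like cells to 3.50 in capillary-like ECs.

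In the KO, 7 of the 10 members differed: *Nr1d2* (0.000284), *Tef* (0.000286), *Per2* (0.00101), *Nr1d1* (0.00117), *Dbp* (0.00498), *Per3* (0.0124) and *Per1* (0.0184), beside 31.3% of all genes. They stayed under 0.05 in 11 to 14 of the 14 alternatives. In lymphatic-like ECs, 1 of 10 members was called higher, beside 1278 of 10972 genes called higher. In capillary-like ECs 7 of 9 members were, beside 1462 of 8997 genes. Of the other clock genes, *Tsc22d3* (4.32e-08), *Nfil3* (5.14e-05), *Nampt* (0.000172), *Cry2* (0.00158), *Por* (0.013), *Rora* (0.0282), *Gsk3b* (0.0282) and *Csnk1e* (0.0478) passed, 8 of the 22 tested. *Rora* stayed under 0.05 in 10 of 14 alternatives, *Gsk3b* in 4 and *Csnk1e* in 1. *Nfil3* and *Rora* were called in both directions, higher in capillary-like ECs and fibroblast-like cells and lower in lymphatic-like ECs.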

How the results depend on the processing

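Called member fold changes kept their sign under every alternative, in 53 of 53 values at anagen and 561 of 561 in the KO, and 41 and 515 of these were still called. Members called in the KO stayed within 1.5 times the 32 throughout (28 by DESeq2). Not every alternative gave higher calls only: under 5% mitochondrial UMIs 27 were called higher and 1 lower. At anagen, the 3 member calls became 15 with no filter on low counts and 2 to 15 with 1 library left out, and DESeq2 made 2 calls, 1 of them shared. Other clock genes went from 2 at anagen to 5 with at least 500 genes per cell, 10 with no count filter, 1 with all 6 libraries in one fit and 3 to 13 with 1 library left out, and from 37 in the KO to 22 to 41 (24 without telogen S1 and 22 without telogen S2). Over all genes, the 673 anagen calls became 1629 with at least 500 genes, 1693 under 5% mitochondrial UMIs, 5393 with no count filter, 1127 by DESeq2 and 705 to 4423 with 1 library left out. The 16566 KO calls became 10607 by DESeq2 and 9628 to 19122 with 1 library left out. Genes whose change differed between populations went from 988 to 1732, 1607 and 1962 under the first 3 of these, 220 when thinned to equal depth and 82 to 1026 with 1 library left out at anagen, and from 4139 to 2358 when thinned and 1619 to 3671 in the KO. The median library share of the members, 20.7%, became 40.6% under 5% mitochondrial UMIs and 33.7% without correction between libraries, where 8 populations were left, and 6.74% in the 4 WT libraries. Other causes of these shifts were not tested. The median of the levels stayed between 22.2 and 27.1 CPM (23.3 as reported), but single levels moved. With the mean of per-cell CPM, 25 of 90 moved by more than 1 SD between libraries of a group. Under 5% mitochondrial UMIs 15 of 80 did, and 11 of 80 without correction between libraries. In the other alternatives 0 to 9 of 90 did. A fold threshold plays no part in the tests between populations, which were run without that alternative.

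A replicate block gave 1967 genes, 4 members and 5 other clock genes at anagen, and 16233, 31 and 35 in the KO. Deviations of same-numbered libraries correlated between -0.16 and 0.22 across genes (median 0.01). This cannot show whether same-numbered libraries shared something that touches few genes, which was not tested. Depth limits *Per2* and *Ciart*, with 610 and 777 UMIs in all.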

Other observations

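ECs that could not be assigned to 1 EC type, 126 cells at telogen, 1006 at anagen and 154 in the KO, entered no comparison. Their *Dbp* level was 0 and 5.50 CPM in the telogen libraries (0 and 2 UMIs), 18.5 and 35.0 CPM at anagen and 3.71 and 3.84 CPM in the KO (2 UMIs each). *Per2* stood at 2.11 and 0 CPM at telogen, 2.19 and 2.20 at anagen and 18.6 and 17.3 in the KO, and *Nr1d2* at 33.8 and 33.0, 32.3 and 22.5, and 87.2 and 57.6 CPM.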
